A study of Rattus norvegicus with 11 samples.

Results

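The hypoblast stem cells studied here, called cHypoSCs by their makers, were compared between day 17 and day 32 of their derivation from rat embryonic stem cells. The members were the 6 arrays of those days among the 11 of the series, chosen by day alone: 2 feeder-free arrays and 1 feeder array at each day. All cells came from 1 embryonic stem cell line, DAc2, and biotin-labelled total RNA was hybridised to Affymetrix Rat Gene 1.0 ST arrays. Before conversion, the feeder-free stem cells had grown on laminin in N2B27 with 3 µM CHIR99021, a GSK3 inhibitor, 2 µM PD0325901, a MEK inhibitor, and 5 ng/mL human BMP4. The stem cells of the feeder arm had grown on mouse embryonic fibroblasts with the same amount of CHIR99021, 0.5 µM PD0325901 and no BMP4. Both arms were then held in the medium used to maintain rat multipotent adult progenitor cells, with LIF, EGF, PDGF and 2% serum. The labels do not say whether fibroblasts were present during the conversion, so "feeder arm" names only the origin of the cells. The 2 feeder-free arrays of a day are labelled biological replicates, with no word on separate cultures, so a p-value may reflect technical spread only. The feeder arm has 1 array a day, and its single values carry no spread.

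The hypoblast, or primitive endoderm, is the layer of the early embryo that faces the blastocyst cavity. It gives rise to the visceral endoderm, an absorptive epithelium over the embryo, and to the parietal endoderm, migratory cells that lay down a thick basement membrane. FGF signalling through MEK and ERK drives cells towards this layer, and PDGF and LIF signals support their survival and growth. Signalling through ERK is held back by the phosphatases and Sprouty proteins it induces, while YAP with TEAD, and serum response factor, couple cell tension and serum to growth and to actin genes.

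On both days the cells carried the markers of this layer. Expression is given on a log2 scale, on which all 6 arrays shared a median of 8.97 over all probe sets. Genes for receptors of smell and pheromones, which such cells hardly use, had a median of 6.39, and 95% of their values lay under 8.13, the level called background below. All 10 of 10 hypoblast markers exceeded background on every array, with array medians from 14.1 to 14.4. Sox17, a transcription factor of endoderm, lay at 15.04 and 14.89 on the feeder-free arrays of day 17 and at 14.90 and 14.80 on those of day 32, and at 14.80 and 14.89 in the feeder arm. Gata4 ranged from 14.20 to 14.46, Gata6 from 14.47 to 14.74 and Lama1, a chain of the basement membrane laminin, from 15.47 to 15.63. Of 6 embryonic stem cell markers 5 exceeded background on all arrays, and Nanog, a factor of the pluripotent state, did so on none. Fibroblast markers had array medians from 8.08 to 8.35. Of these 8 genes 4, Col1a1 and Col3a1 among them, exceeded background on all arrays, and Dcn, Lum and Postn did so on none. Of 6 trophoblast markers 5 exceeded background on all arrays, with array medians from 9.27 to 9.46, as did 2 of 4 mesoderm and 1 of 2 neuroectoderm markers. A level above background alone therefore does not set the hypoblast markers apart, whereas their medians were higher. In bulk RNA a smaller number of cells of a type and less RNA per cell cannot be told apart.

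The arrays separated first by culture and then by day. On the first principal component, which held 67.5% of the variance, the feeder arrays lay at 29.7 and 35.3 and the feeder-free arrays between -18.7 and -13.9. The second component, with 18.8%, set the 3 arrays of day 17 (5.96 to 14.8) apart from the 3 of day 32 (-13.7 to -8.89). Feeder-free replicates correlated at 0.998 on either day, and no pair of arrays held identical values throughout. The comparison of days therefore carried a term for culture.

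From day 17 to day 32 more genes fell than rose. Some genes of muscle-type contractile proteins, some targets of ERK and of YAP, and several signalling regulators fell, while the hypoblast factors Gata4, Gata6 and Sox17 did not pass the test. Of 14506 genes 794 changed at an adjusted p under 0.05, which is 5.47% (limma with Benjamini-Hochberg adjustment), and 2753 had an unadjusted p under 0.05. Falls outnumbered rises, with 593 genes (4.09%) against 201 (1.39%). Rises made up 25.3% of the calls. With each array centred on the median of the genes, 334 rose and 404 fell, so that rises made up 45.3%. Changes were mostly modest: the median fall was -0.52 and the median rise 0.44, and 55 falls but 7 rises reached 1 on the log2 scale. In all 794 the sign was the same in both cultures, which the joint fit favours. Over all 14506 genes the changes of the feeder-free and feeder arms correlated at 0.39. Of the 794 called genes 563 changed more in the feeder-free arm, where the estimate has its larger weight.

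The size of the called set depended on single arrays and on how culture was handled. Without feeder-free day 17 replicates 1 and 2 in turn 395 and 311 genes passed, without feeder-free day 32 replicates 1 and 2 in turn 157 and 168, and without either feeder array 1099. With no culture term 0 genes passed (876 at an unadjusted p under 0.05), and 0 passed when day and culture terms were fitted to all 11 arrays (1057 unadjusted). Of the 87 called genes that the naming rule picked, 31 kept their call with each of the 6 arrays left out in turn and 8 kept it in none (Pdgfra, Esrrb, Plac1, Id2, Smad7, Il6st, Slc7a11 and Ddit3). A fit without 1 feeder array draws the change of day from the feeder-free arrays alone. Over all genes calls were thus fewer without a feeder-free array and more without a feeder array. Counts of list members with an array left out, given below, are to be read beside these totals.

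**Figure D1:**
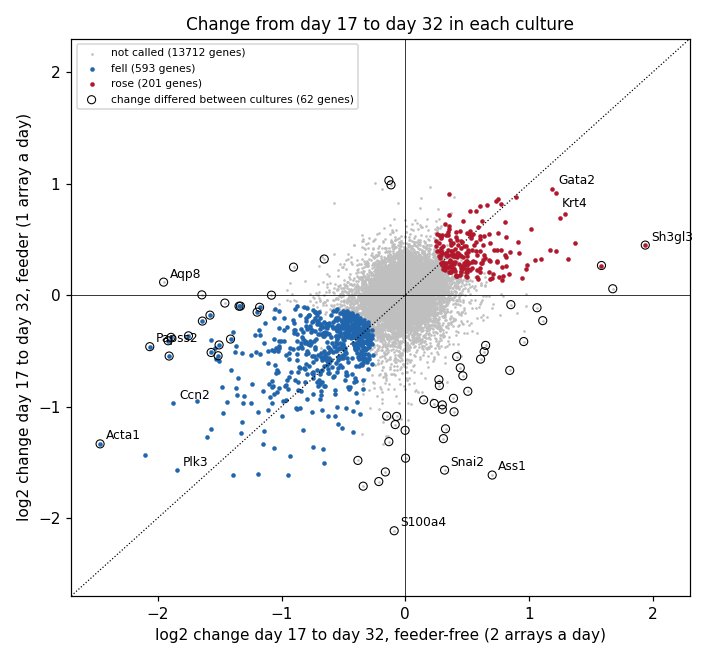
Log2 change from day 17 to day 32 in the feeder-free arm (horizontal, difference of means of 2 arrays) and the feeder arm (vertical, difference of 1 array a day); each point is a gene, coloured where the joint change passed, and circled where the change differed between the cultures (62 genes). Called falls (593) and rises (201) lie in the quadrants where both cultures moved the same way, which the joint fit favours.

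Contractile genes were among the falls, Acta1 with the largest. Of 19 measured genes for actin and its contractile partners 9 fell and 0 rose, with a median change of -0.32 over the list beside -0.00086 over all genes. Acta1, skeletal muscle alpha-actin, lay at 13.89 and 13.95 on the feeder-free arrays of day 17 and at 11.54 and 11.36 on those of day 32, and went from 13.85 to 12.51 in the feeder arm. In each culture the day 32 values lay below those of day 17. Such a separation within each culture, with 1 sign in both, was found in 31.2% of all genes and in 100% of the called ones. Over both cultures Acta1 fell by 2.09 ± 0.20 (log2 units, with its SE, as below; adjusted p = 0.00143), or 4.26-fold, the largest change in size among the 14506 genes in this fit. Even so, Acta1 at day 32 stood above its day 0 levels of 10.07 without and 10.41 with feeder cells. The fall was larger without feeder cells (changes of -2.47 and -1.34, adjusted p of the difference 0.0455).

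Several other muscle-type proteins followed the same course. Cnn1, the smooth muscle actin-binding protein calponin, was 11.40 and 11.50 without feeder cells at day 17 and 10.14 and 10.02 at day 32, with 11.21 and 10.37 in the feeder arm. It fell by 1.19 ± 0.11 (adjusted p = 0.00142). Actc1, cardiac alpha-actin, fell by 0.93 ± 0.16 (adjusted p = 0.0176) and Tpm1, a tropomyosin that lies along the actin filament, by 0.91 ± 0.12 (adjusted p = 0.00647). For all of these genes each array of day 32 lay below each array of day 17. Such a lack of overlap, in either direction, was found in 10.7% of all genes and in 487 of the 794 called ones. It is thus common among calls, here and for the genes below. Smooth muscle actin, Acta2, moved by -0.13 ± 0.07 and did not pass (adjusted p = 0.337), and the myosin light chain Myl9 moved by -0.05 ± 0.08 (adjusted p = 0.775).

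Among troponins, tropomyosins and myosin light chains, a family set picked by symbol after its values were seen, 6 of 21 fell and 0 rose. Tnni1, the inhibitory troponin of slow muscle, lay at 11.71 and 11.68 (day 17) and at 10.12 and 10.11 (day 32) without feeder cells, and at 10.94 and 9.74 with them. It fell by 1.45 ± 0.09 (adjusted p = 0.000483) and kept its call whichever array was left out. Tnnc1, the calcium-binding troponin, fell by 1.26 ± 0.13 (adjusted p = 0.00168) and Myl3, a light chain of slow and ventricular myosin, by 1.15 ± 0.12 (adjusted p = 0.00213). Myl3 stood at background at day 0 without feeder cells, at 8.12, and at 13.16 and 13.10 at day 17. The contractile list had 5 and 4 falls without feeder-free day 17 replicates 1 and 2 in turn, 2 without either feeder-free day 32 replicate (0.965% and 0.931% of all genes fell then), and 11 without either feeder array. Actc1 lost its call without feeder-free day 17 replicate 2 and without either feeder-free day 32 array, at changes that stayed negative, and Tpm1 without either feeder-free day 32 array.

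**Figure D2:**
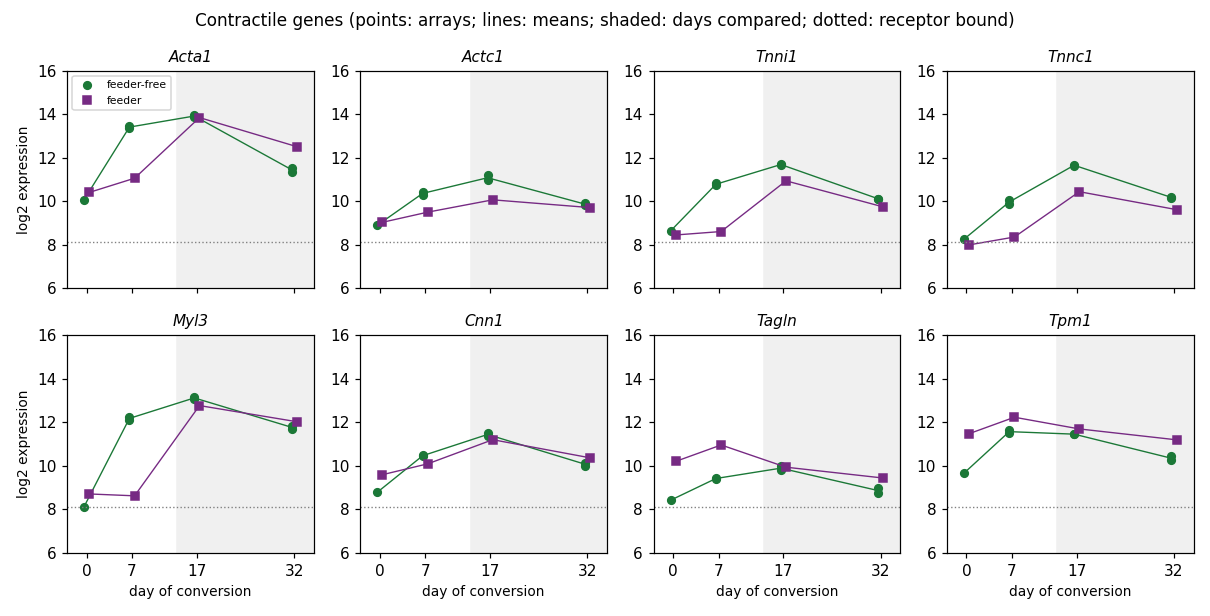
Log2 expression of 8 contractile genes by day of conversion; points are arrays (circles feeder-free, squares feeder), lines join the means, shading marks the compared days and the dotted line is the background level of 8.13. All 8 were taken from the called falls, so in each panel the day 32 arrays lie below the day 17 arrays of the same culture, most of all for Acta1.

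Promoters of 4 of the falling contractile and YAP target genes are shown. They were picked because each holds a CArG box, the sequence bound by serum response factor, or a TEAD site. Both factors act on genes of this kind. The search covered 28 genes, the falling members of these lists and the 15 largest falls, of which 20 had a promoter to search. Of these 20, 1 (Acta1) held a CArG box and 7 a TEAD site. Ptpn14, Vcl and Zyx, with a TEAD site each, are not printed, and the remaining promoters held neither. The bases are the 250 before the transcription start in RefSeq, build GRCr8, written 5′ to 3′ on the strand of the gene. Capitals mark a CArG box or the TEAD site GGAATG on either strand. Acta1 (chr19:68784195-68784444, minus strand) has a CArG box that begins 94 bases and a TEAD site that begins 67 bases before the start. Ccn1 (chr2:237225690-237225939, minus strand) has a TEAD site from 113 bases before the start, Ccn2 (chr1:22624615-22624864, minus strand) has 3, from 166, 101 and 92 bases, and Tpm1 (chr8:76543416-76543665, minus strand) has 1 from 31 bases. No capitals overlap.
Acta1: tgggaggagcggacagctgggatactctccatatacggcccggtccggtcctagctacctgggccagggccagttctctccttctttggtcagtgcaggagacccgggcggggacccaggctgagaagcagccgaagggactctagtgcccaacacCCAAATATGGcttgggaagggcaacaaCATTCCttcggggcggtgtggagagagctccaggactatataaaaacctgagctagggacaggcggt
Tpm1: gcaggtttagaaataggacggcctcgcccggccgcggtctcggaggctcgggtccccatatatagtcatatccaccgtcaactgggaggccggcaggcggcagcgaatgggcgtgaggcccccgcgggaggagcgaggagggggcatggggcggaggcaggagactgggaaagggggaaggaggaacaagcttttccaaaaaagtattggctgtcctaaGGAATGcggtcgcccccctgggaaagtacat
Ccn1: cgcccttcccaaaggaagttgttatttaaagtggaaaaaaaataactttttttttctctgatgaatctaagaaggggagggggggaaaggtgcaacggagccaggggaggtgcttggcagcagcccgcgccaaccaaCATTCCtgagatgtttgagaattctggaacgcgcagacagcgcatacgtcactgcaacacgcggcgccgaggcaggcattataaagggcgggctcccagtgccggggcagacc
Ccn2: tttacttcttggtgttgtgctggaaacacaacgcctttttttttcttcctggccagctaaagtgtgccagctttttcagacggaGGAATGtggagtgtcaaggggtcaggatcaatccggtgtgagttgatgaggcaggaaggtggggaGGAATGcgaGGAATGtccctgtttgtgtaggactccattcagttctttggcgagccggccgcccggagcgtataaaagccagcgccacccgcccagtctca
Among the 11968 tested genes with a promoter in the table, 10.4% held a TEAD site and 1.17% a CArG box in this window. Of the 476 such genes that fell 12.8% held a TEAD site and 3.36% a CArG box, and of the 159 that rose 6.29% and 0.629%. Over all 27457 promoters of the table the shares were 11.8% and 1.5%. The AP-1 site TGANTCA stood in 6.09% of the falls, 4.4% of the rises and 5.54% of all tested genes. A match is a run of letters and does not show binding.

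Targets of YAP and TEAD were also among the falls. Of 12 measured members 6 fell and 0 rose, and the median change of -0.50 was the lowest of the 28 lists in this fit. Ccn2, a secreted matrix-associated regulator also called CTGF, lay at 13.58 and 13.73 at day 17 and at 11.82 and 11.75 at day 32 without feeder cells, and at 13.64 and 12.67 in the feeder arm. It fell by 1.58 ± 0.17 (2.98-fold, adjusted p = 0.00208), with no overlap between the days. Its relative Ccn1, or CYR61, was 14.21 and 14.28 at day 17 and 12.65 and 12.56 at day 32 without feeder cells, but 14.08 and 13.84 in the feeder arm. Jointly Ccn1 fell by 1.17 ± 0.24 (adjusted p = 0.0311). It lost its call under quantile normalization, under centring, with trend and robust, and without any 1 of the feeder-free arrays.

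F3, tissue factor, which starts coagulation, fell by 0.84 ± 0.12 (adjusted p = 0.00658), and Lats2, a kinase that restrains YAP and is itself induced by it, by 0.79 ± 0.12 (adjusted p = 0.00837). Ankrd1, a nuclear cofactor induced by mechanical load, was 9.39 and 9.31 at day 17 and 8.43 and 8.66 at day 32 without feeder cells, with 9.55 and 9.03 in the feeder arm. It fell by 0.71 ± 0.09 (adjusted p = 0.00554). Ptpn14, a phosphatase that binds YAP, fell by 0.49 ± 0.07 (adjusted p = 0.00645). Of 9 list members with a promoter to search, 6 held a TEAD site: Ccn1, Ccn2 and Ptpn14, which fell, and Ajuba, Amotl2 and Nuak2, which were not called. F3 and Lats2 lost their calls without either feeder-free day 32 array. Without either of these arrays 2 members fell, without either feeder-free day 17 array 5, and without either feeder array 8.

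Some targets of ERK signalling were among the falls, 6 of 18, and 0 rose (median -0.22). Dusp4, a nuclear phosphatase that turns off ERK, lay at 12.29 and 12.34 at day 17 and at 10.68 and 10.58 at day 32 without feeder cells, and at 11.71 and 10.76 in the feeder arm. All arrays of day 32 lay below all arrays of day 17, and Dusp4 fell by 1.44 ± 0.14 (2.71-fold, adjusted p = 0.00146). Dusp6, the cytoplasmic ERK phosphatase, went from 8.71 and 8.62 to 7.64 and 7.72 without feeder cells and from 9.10 to 8.15 in the feeder arm. Its change of -0.98 ± 0.07 (adjusted p = 0.000651) ended at or under background in the feeder-free arm, so its size may be understated. Both calls held with each array left out in turn.

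Growth regulators were also among these ERK targets. Ccnd1, the cyclin that carries cells through G1, was 11.01 and 11.02 at day 17 and 9.35 and 9.62 at day 32 without feeder cells, but 11.56 and 11.09 in the feeder arm. The feeder array of day 32 thus stood above the feeder-free arrays of day 17. Jointly it fell by 1.18 ± 0.19 (adjusted p = 0.0135), a call lost without either feeder-free day 32 array. Myc, a driver of cell growth, fell by 0.85 ± 0.09 (adjusted p = 0.00208). Phlda1 and Ier3, early response genes, fell by 0.34 ± 0.07 and 0.48 ± 0.08. The Sprouty genes, which block signalling upstream of ERK, did not pass: Spry2 moved by -0.08 ± 0.08 (adjusted p = 0.655) and Spry4 by -0.71 without and 0.00 with feeder cells (joint adjusted p = 0.102). Of Etv4 and Etv5, transcription factors downstream of FGF, neither passed (adjusted p = 0.585 and 0.191). The list had 3 falls without either feeder-free day 32 array, 5 and 4 without feeder-free day 17 replicates 1 and 2 in turn, and 6 falls and 1 rise without either feeder array.

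Immediate early genes, induced at once by growth factors and stress, changed in both directions. Of 13 measured 5 fell and 1 rose (median -0.29), with 3, 3, 3 and 2 falls when each feeder-free array was left out in turn. Klf6 fell by 0.70 ± 0.08 (adjusted p = 0.00403), Atf3, a stress-induced factor, by 0.64 ± 0.09 (adjusted p = 0.00626) and Jun, a subunit of the AP-1 factor, by 0.43 ± 0.10 (adjusted p = 0.0428), with Ccn1 and Ccn2 as the remaining falls. Atf3 lost its call without feeder-free day 32 replicate 2. Egr3 rose by 0.39 ± 0.07 (adjusted p = 0.0167). Egr1 moved by 0.26 ± 0.09 (adjusted p = 0.178) and Fos by -0.29 ± 0.09 (adjusted p = 0.141). Dusp1, a phosphatase of stress kinases described after its values were seen, went from 10.98 and 10.94 to 9.89 and 9.90 without feeder cells and from 11.59 to 10.22 in the feeder arm. It fell by 1.16 ± 0.08 (adjusted p = 0.000651). Plk3, a stress-responsive kinase, went from 10.87 and 10.91 to 9.03 and 9.06 and, in the feeder arm, from 11.38 to 9.81. It fell by 1.75 ± 0.08 (3.37-fold, adjusted p = 0.000206).

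**Figure D3:**
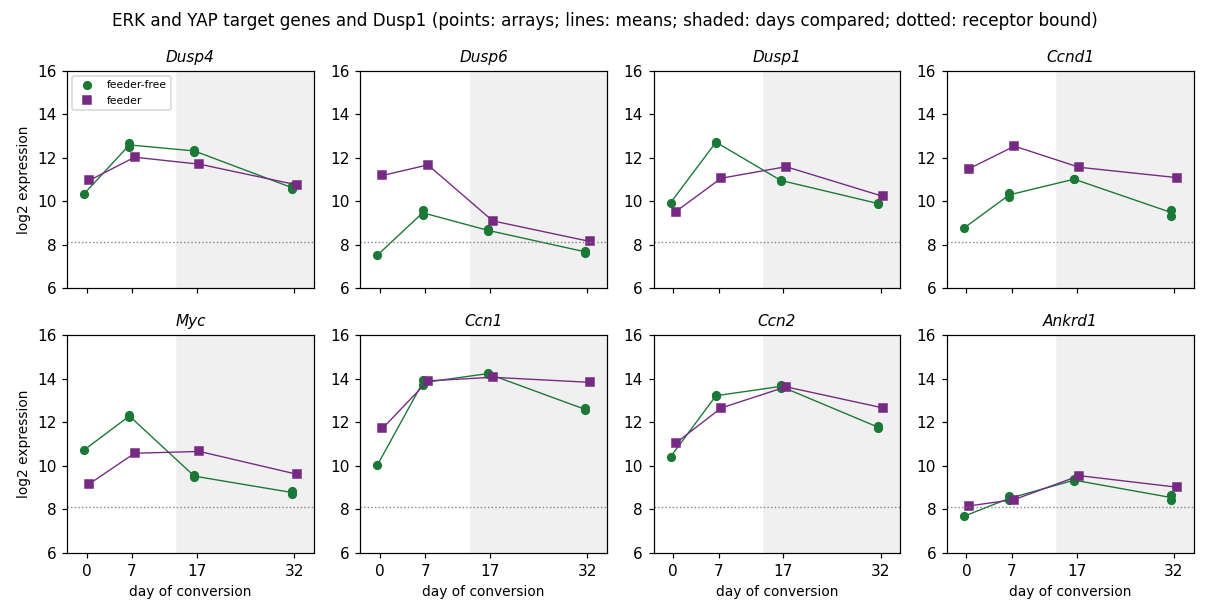
Log2 expression of ERK targets (Dusp4, Dusp6, Ccnd1, Myc), the stress phosphatase Dusp1 and YAP targets (Ccn1, Ccn2, Ankrd1) by day of conversion; symbols, lines, shading and dotted line as for the contractile genes. Dusp6 reaches the background level of 8.13 by day 32, and Ccn1 goes down without feeder cells (14.21 and 14.28 to 12.65 and 12.56) more than in the feeder arm (14.08 to 13.84).

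Of 30 cell cycle and replication genes 3 fell and 0 rose, with a median of 0.0025. Besides Ccnd1 these were Cdk6, its kinase partner, which fell by 0.94 ± 0.16 (adjusted p = 0.014), and Cdkn1a, the inhibitor p21, which fell by 0.56 ± 0.10 (adjusted p = 0.0207). Cdk6 was close to background without feeder cells at day 32 (7.92 and 8.06), and Cdkn1a lost its call under quantile normalization and without feeder-free day 17 replicate 2. No member was called without either feeder-free day 32 array.

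Many of the falling genes had been higher at day 7 than at day 0. From day 0 to day 7, on arrays that the comparison did not use, the 593 falling genes had a median change of 0.48 without and 0.15 with feeder cells, beside -0.05 and -0.02 over all genes. Of the falling genes 68.5% were higher at day 7 than at day 0 without and 61.2% with feeder cells, against 42.1% and 46.0% of all genes. For the 201 rising genes the medians were 0.08 and 0.03, and 53.7% without and 52.7% with feeder cells were higher at day 7, also above the shares of all genes. A gene called as falling mostly had to be expressed at day 17, so the share over all genes is an uneven comparison. The later course differed between genes. Without feeder cells Plk3 lay at 8.58 at day 0, at 12.11 and 12.39 at day 7, and at 10.87 and 10.91 at day 17. In the feeder arm Plk3 went from 10.04 at day 0 to 10.81 at day 7 and 11.38 at day 17. Acta1 without feeder cells stood higher at day 17 (13.89 and 13.95) than at day 7 (13.38 and 13.44). Day 0 has 1 array a culture, so these shares are given without a test.

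Genes of mesenchymal transition fell in part. Of 14 measured 6 fell and 0 rose (median -0.33). Cdh2, N-cadherin, fell by 0.92 ± 0.10 (adjusted p = 0.00244), Fn1, fibronectin, by 0.74 ± 0.07 (adjusted p = 0.00135), Zeb1, a repressor of epithelial genes, by 0.71 ± 0.12 (adjusted p = 0.0167) and Mmp14, a membrane-bound matrix protease, by 0.55 ± 0.08 (adjusted p = 0.0069). Itga5, the fibronectin receptor subunit, fell by 0.51 ± 0.07 (adjusted p = 0.00654). Cdh2 at day 17 was 9.76 and 9.97 without and 9.31 with feeder cells, and at day 32 8.76, 8.91 and 8.62, with no overlap. Snai1, also on the parietal endoderm list, fell by 0.35 ± 0.08 (adjusted p = 0.0443), a call lost under centring and without any 1 of the feeder-free arrays. Zeb1 lost its call without feeder-free day 17 replicate 2 and without either feeder-free day 32 array, and Mmp14 without the second of the latter. The list had 3 and 2 falls without feeder-free day 32 replicates 1 and 2 in turn, 5 and 4 without those of day 17, and 6 without either feeder array.

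On the epithelial side keratins moved both ways. Of 17 epithelial junction and keratin genes 1 rose and 4 fell, with a median of 0.09, without either feeder-free day 32 array 1 rose and 0 fell, and in the feeder-free arrays alone 4 rose and 3 fell. Krt4, a keratin of stratified epithelia, was 10.08 and 10.50 at day 17 and 11.59 and 11.43 at day 32 without feeder cells, and 9.84 and 10.76 in the feeder arm. It rose by 1.12 ± 0.12 (2.17-fold, adjusted p = 0.00234). Keratins of simple epithelia were among the falls: Krt19 by 0.51 ± 0.08, Krt18 by 0.48 ± 0.07 and their partner Krt8 by 0.38 ± 0.07 (adjusted p = 0.00827, 0.00926 and 0.0177). Cldn4, a tight junction protein, fell by 0.41 ± 0.09 (adjusted p = 0.0386), a call lost under quantile normalization, under centring and in the feeder-free arrays alone.

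Retinoid enzymes were among the falls. Of 14 measured genes of steroid synthesis and retinoid handling 4 fell and 0 rose (median -0.10). Rdh10, which makes retinaldehyde from retinol, lay at 11.84 and 11.90 at day 17 and at 10.67 and 10.36 at day 32 without feeder cells, and at 13.50 and 12.61 in the feeder arm. It fell by 1.20 ± 0.12 (adjusted p = 0.0016). Cyp26a1, which degrades retinoic acid, went from 11.13 and 11.01 to 9.70 and 9.64 and, in the feeder arm, from 11.89 to 11.22. Cyp26a1 fell by 1.16 ± 0.14 (adjusted p = 0.0038). For both genes the feeder array of day 32 lay above the feeder-free arrays of day 17, so the groups of 3 overlapped although each culture fell. Dhrs3, which returns retinaldehyde to retinol, fell by 0.47 ± 0.08 (adjusted p = 0.0136) and Akr1c14, a hydroxysteroid dehydrogenase, by 0.83 ± 0.12 (adjusted p = 0.00671). The list had 1 and 2 falls without feeder-free day 32 replicates 1 and 2 in turn. Cyp26a1 lost its call without the first of them, Akr1c14 and Dhrs3 without either, and Dhrs3 also without feeder-free day 17 replicate 2.

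A minority of the BMP and activin genes fell. Of 14 BMP and TGF-beta targets 4 fell and 0 rose (median -0.19). Inhba, the activin A subunit, fell by 0.67 ± 0.08 (adjusted p = 0.00459) and Nog, the BMP antagonist noggin, by 0.57 ± 0.09 (adjusted p = 0.00926). Smad7, the inhibitory SMAD, and Id2, a BMP-induced repressor, fell by 0.36 ± 0.07 and 0.40 ± 0.09 and lost their calls in the feeder-free arrays alone and with any 1 feeder-free array left out. Bmp6 lay at 10.90 and 10.91 at day 17 and at 9.29 and 9.31 at day 32 without feeder cells, and at 11.61 and 10.33 in the feeder arm. It fell by 1.49 ± 0.08 (adjusted p = 0.000389). Gdf9, a ligand best known from the oocyte, fell by 1.47 ± 0.10 (adjusted p = 0.000651), and Fst, which binds activin, by 0.57 ± 0.07 (adjusted p = 0.00537). Nog lost its call without either feeder-free day 32 array. Without either of these 1 of the 4 targets passed, and without either of day 17 2 did. Of 17 BMP and GDF ligands, grouped by symbol after their values were seen, 3 fell and 0 rose.

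Imprinted and amino acid stress genes made smaller groups. Of 15 imprinted genes 3 fell and 0 rose: Sgce, a sarcoglycan expressed from the paternal allele, by 1.17 ± 0.13 (adjusted p = 0.00244), Igf2r, the receptor that clears IGF2, by 0.70 ± 0.07 (adjusted p = 0.00208) and Plagl1 by 0.58 ± 0.13 (adjusted p = 0.0455). The call of Plagl1 was lost under quantile normalization, under centring and with any 1 feeder-free array left out. Of 19 genes of amino acid transport and stress response 4 fell and 0 rose. Phgdh, the entry enzyme of serine synthesis, fell by 0.49 ± 0.09 (adjusted p = 0.0201) and the stress factors Trib3 and Ddit3 by 0.39 ± 0.08 and 0.34 ± 0.07 (adjusted p = 0.0296 and 0.0285). Trib3 and Ddit3 lost their calls under centring, and Phgdh and Trib3 with any 1 feeder-free array left out. Slc7a11, the cystine transporter, lay under background on all 6 arrays.

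Rises were fewer than falls. The largest was in Sh3gl3, an endophilin of membrane curvature, which went from 10.58 and 10.58 to 12.58 and 12.46 without feeder cells but from 10.49 to 10.94 in the feeder arm. The joint rise was 1.44 ± 0.26 (adjusted p = 0.0176), and the change differed between the cultures by -1.49 (adjusted p = 0.0205). The joint call was lost without feeder-free day 17 replicate 2 and without either feeder-free day 32 array. Gata2, a transcription factor of trophoblast and blood, was 9.21 and 9.19 at day 17 and 10.55 and 10.23 at day 32 without feeder cells, with 9.80 and 10.76 in the feeder arm. It rose by 1.11 ± 0.10 (2.16-fold, adjusted p = 0.00114) with no overlap between the days, yet at day 7 without feeder cells it had stood higher, at 11.38 and 11.45. Klk7, a secreted serine protease, rose by 1.15 ± 0.23 (adjusted p = 0.0269), lost under quantile normalization and with any 1 feeder-free array left out. Dkkl1, a Dickkopf-like secreted protein, rose by 1.06 ± 0.12 (adjusted p = 0.00263) and Anpep, the surface aminopeptidase of absorptive epithelia, by 0.79 ± 0.07 (adjusted p = 0.00106).

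The trophoblast list held 1 call besides Gata2. Of 10 measured 2 rose and 0 fell (median 0.06). The second was Plac1, a placental membrane protein, which rose by 0.38 ± 0.08 (adjusted p = 0.0312) and lost its call with any 1 array left out. Cdx2, which specifies trophoblast, moved by 0.07 ± 0.08 (adjusted p = 0.723) and Gata3 by -0.18 ± 0.10 (adjusted p = 0.404).

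A few visceral endoderm genes rose. Of 15 measured 3 rose and 0 fell, with a median of 0.02. Amn, or amnionless, which anchors the cubilin receptor in the apical membrane, had a mean of 12.004 ± 0.012 (SD, n = 2) at day 17 and of 12.82 ± 0.031 at day 32 without feeder cells, and lay at 12.50 and 12.77 in the feeder arm. It rose by 0.63 ± 0.11 (adjusted p = 0.0176). Ihh, a hedgehog ligand of visceral endoderm, rose by 0.61 ± 0.11 (adjusted p = 0.0184) and Hnf4a, the regulator of its metabolic genes, by 0.44 ± 0.10 (adjusted p = 0.0428). Each of the 3 lost its call with any 1 feeder-free array left out, and Hnf4a also under quantile normalization. Secreted products of mature visceral endoderm were low: Afp ranged from 8.35 to 8.68 and Ttr from 7.63 to 8.27, around background. Cubn, the uptake receptor itself, moved by 0.30 ± 0.08 and Lrp2 by -0.23 ± 0.08 (adjusted p = 0.0688 and 0.144).

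Of 13 naive pluripotency genes 4 rose and 0 fell (median 0.11). Pou5f1, or Oct4, was 13.76 and 13.84 at day 17 and 14.41 and 14.27 at day 32 without feeder cells, and 12.98 and 13.39 in the feeder arm. It rose by 0.50 ± 0.08 (1.41-fold, adjusted p = 0.0097). Day 0 cells had 14.93 without and 14.07 with feeder cells, above the day 32 arrays of the same culture. Dppa3, a maternal factor that protects DNA methylation, rose by 0.67 ± 0.09 (adjusted p = 0.00627), from 12.43 and 12.56 to 13.22 and 12.98 and from 11.08 to 11.87 in the feeder arm. The nuclear receptor Esrrb and the factor Tfcp2l1 rose by 0.36 ± 0.08 and 0.34 ± 0.08 (adjusted p = 0.0428 and 0.0463), and both lost their calls with any 1 feeder-free array left out. Pou5f1 lost its call without either feeder-free day 32 array, and Dppa3 without the first. The rest included Nanog, under background on all arrays, and Sox2, between 9.51 and 9.82 with a change of -0.04 ± 0.07 (adjusted p = 0.802). The 4 rises became 2 without either feeder-free day 17 array, 0 and 1 without feeder-free day 32 replicates 1 and 2 in turn, and 3 without either feeder array.

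Most hypoblast regulators did not pass. Of 11 measured 2 rose and 1 fell, with a median of -0.05. Gata4 changed by -0.15 ± 0.08 (adjusted p = 0.34), Gata6 by 0.03 ± 0.07 (adjusted p = 0.892) and Sox17 by -0.05 ± 0.08 (adjusted p = 0.828). Pdgfra, the PDGF receptor alpha, went from 13.99 ± 0.013 (SD, n = 2) to 14.28 ± 0.048 without feeder cells and from 13.30 to 13.73 in the feeder arm. Its rise of 0.33 ± 0.07 (adjusted p = 0.0337) lost its call with any 1 array left out and with the replicate block. Fgfr2, an FGF receptor, rose by 0.53 ± 0.07 (adjusted p = 0.00647), and Dab2, an endocytic adaptor, fell by 0.41 ± 0.08 (adjusted p = 0.0226). Fgfr2 lost its call without feeder-free day 32 replicate 1, and Dab2 with any 1 feeder-free array left out.

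**Figure D4:**
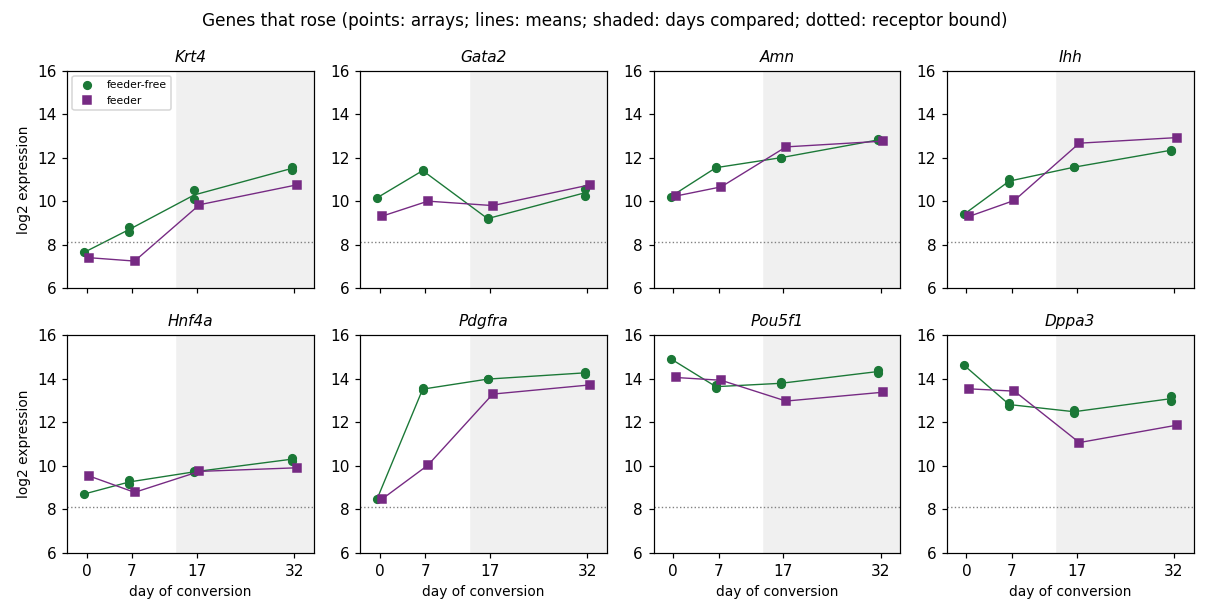
Log2 expression of 8 genes that rose from day 17 to day 32, by day of conversion; symbols, lines, shading and dotted line as for the contractile genes. Krt4 climbs from under the background level of 8.13 at day 0, whereas Pou5f1 and Dppa3 recover part of a loss and Gata2 had been higher at day 7 without feeder cells.

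Basement membrane genes gave 0 calls among 16 (limma, 1 at an unadjusted p under 0.05), the largest changes being those of P4ha2, a collagen prolyl hydroxylase, at -0.37 ± 0.10 (adjusted p = 0.0716) and Lama5, a laminin chain, at 0.28 ± 0.17 (adjusted p = 0.437). Of 11 parietal endoderm genes 2 fell, Fst and Snai1. Sparc, a matrix protein of parietal endoderm, ranged from 15.50 to 15.90 and changed by -0.10 ± 0.07 (adjusted p = 0.532). In uptake and lysosome genes 2 of 19 rose and 2 fell: Gla, a lysosomal galactosidase, rose by 0.53 ± 0.07 (adjusted p = 0.00451) and Lgmn, the protease legumain, fell by 0.80 ± 0.10 (adjusted p = 0.00371), beside Amn and Dab2.

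Metabolic lists were called at about the share of all genes (5.26% each for glycolysis and cholesterol synthesis, against 5.47%). Tpi1, triose phosphate isomerase, rose by 0.39 ± 0.07 (adjusted p = 0.0247) as 1 of 19 glycolytic genes, whose median was 0.14. Nsdhl rose by 0.46 ± 0.07 (adjusted p = 0.0124) as 1 of 19 genes of cholesterol synthesis. Dnmt3a, a de novo DNA methyltransferase, rose by 0.60 ± 0.08 (adjusted p = 0.00492) and Piwil2, a germline PIWI protein, fell by 0.55 ± 0.10 (adjusted p = 0.0223), the 2 calls among 15 genes. The calls of Tpi1 and Piwil2 were lost with any 1 feeder-free array left out, and those of Nsdhl and Dnmt3a without feeder-free day 32 replicate 1. The lists for mesendoderm (10 genes), neuroectoderm (7), fibroblasts (13), Wnt targets (9) and the respiratory chain (20) held 0 calls in limma at this threshold, with 0, 3, 1, 0 and 2 genes at an unadjusted p under 0.05. Their largest changes were in Msx1 (-0.15), Nes (-0.34), Fbln2 (-0.34), Dkk1 (-0.24) and Ndufb5 (-0.33).

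Some genes changed differently in the 2 cultures. The change differed at an adjusted p under 0.05 for 62 of 14506 genes, or 0.427%, and 1508 had an unadjusted p under 0.05. In 24 the change of the feeder arm lay above that of the feeder-free arm and in 38 below. These tests rest on 2 residual degrees of freedom from the feeder-free pairs, and the single feeder arrays are assumed to vary like them. In this test 0 genes passed under quantile normalization (1753 at an unadjusted p under 0.05), under centring (1690), or without feeder-free day 32 replicate 1 or 2 (1525 and 1273), while 313 and 310 passed without feeder-free day 17 replicates 1 and 2.

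In the feeder arm several genes stood above the feeder-free cells at day 17 and lower by day 32. Ass1, an enzyme of arginine synthesis, was 9.09 and 8.90 at day 17 and 9.71 and 9.68 at day 32 without feeder cells, but went from 11.42 to 9.81 in the feeder arm. The changes were 0.70 and -1.62, and they differed by -2.32 ± 0.16 (adjusted p = 0.0083). S100a4, a calcium-binding protein of motile cells, lay under background without feeder cells (7.00 to 7.21) and at 11.10 and then 8.99 in the feeder arm, a difference of -2.03 in the changes. Snai2, or Slug, a transition factor, was between 8.26 and 8.65 without feeder cells and at 10.36 and 8.79 in the feeder arm. The feeder arm had held Snai2 at 10.93 at day 0 as well, whereas S100a4 stood at 7.47 there. Of the 13 fibroblast genes 5 were lower and 8 higher at day 32 than at day 17 on the feeder arrays, with changes from -0.84 to 0.21 and array medians of 8.94 and 8.84, after 10.4 at day 0 and 9.71 at day 7. Fbln2, a matrix protein of fibroblasts, moved the most, from 10.02 to 9.18 in the feeder arm beside means of 8.29 and 8.20 without feeder cells, followed by the crosslinking enzyme Loxl1, from 9.26 to 8.84. The collagen Col1a1 went from 10.19 to 10.004 and Col3a1 from 8.94 to 8.98, while Dcn, Lum and Postn lay under background. For none of the 13 did the change differ between the cultures at an adjusted p under 0.05 (lowest 0.202, Fbln2), and the part of fibroblast RNA in the culture differences was not tested. Sgk1, a serum- and steroid-induced kinase, moved by 0.31 without and by -1.29 with feeder cells.

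Other genes moved more without feeder cells than in the feeder arm. Igf1, the growth factor, went from 9.71 and 9.72 to 11.39 and 11.39 without feeder cells and read 11.29 and 11.35 in the feeder arm. Aqp8, a water channel, went from 11.96 and 12.08 to 10.13 and 10.01 without feeder cells and from 13.10 to 13.21 with them, a difference of 2.07 (adjusted p = 0.0083). Tgfbr3, or betaglycan, a TGF-beta co-receptor, went from 11.01 and 11.04 to 9.39 and 9.38, beside 11.01 at both days in the feeder arm. Papss2, which makes the sulfate donor, Capn6, a calpain without protease activity, and the peptide transporter Slc15a2 fell in the joint comparison by 1.53 ± 0.27, 1.39 ± 0.26 and 1.41 ± 0.26, most of it from the feeder-free arm (-2.07, -1.89 and -1.92, beside -0.46, -0.38 and -0.41). The joint calls of Capn6 and Slc15a2 were lost with any 1 feeder-free array left out, and that of Papss2 without feeder-free day 17 replicate 2 or either feeder-free day 32 array.

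**Figure D5:**
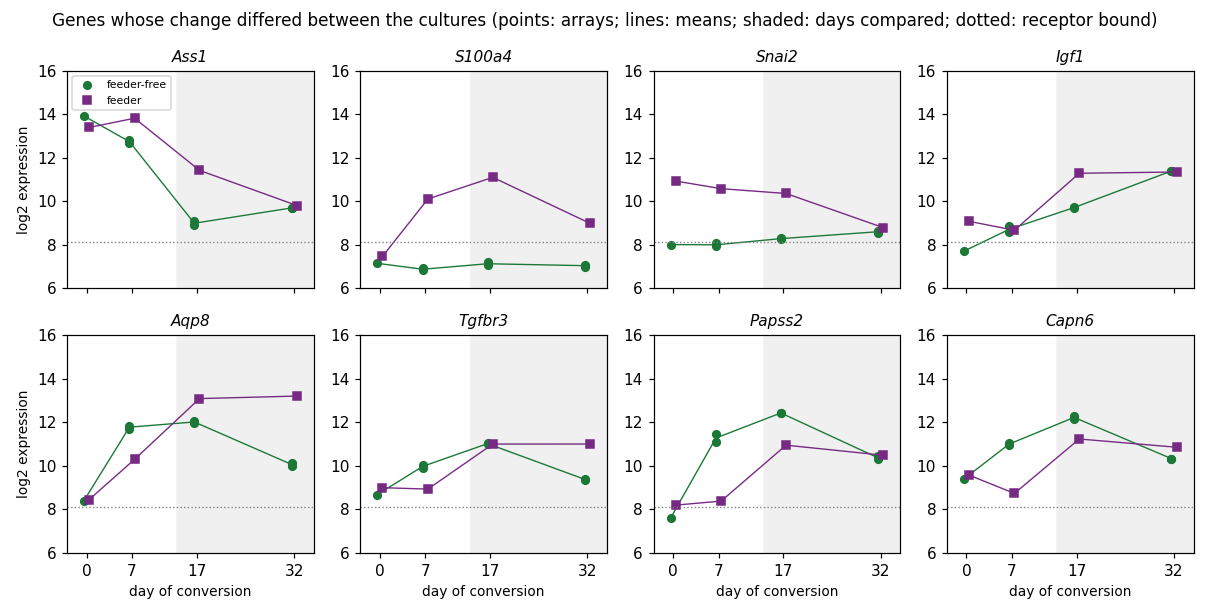
Log2 expression of 8 of the genes whose change from day 17 to day 32 differed between the cultures, by day of conversion; symbols, lines, shading and dotted line as for the contractile genes. In Ass1, S100a4 and Snai2 the feeder array of day 32 lies below that of day 17, and in Aqp8, Tgfbr3, Papss2 and Capn6 the feeder-free arrays do so while the feeder arm changes by 0.46 or less in either direction.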

How the data were processed

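Values were the log2 expression values that the authors deposited, 1 per probe set and array, for which the submitters' processing notes name RMA; its version, options and the step that gave all arrays a common median are not given in the sources used here. Scanner files were not used here. RMA draws low values together, so changes of dim genes are understated. Of 29214 probe sets 15310 carried 1 gene symbol, 323 several and 13581 none, and 15279 matched RefSeq (GRCr8) for names. The probe set with the highest mean over all 11 arrays stood for each of 527 genes with several, which left 14506 genes with no filter.

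Groups came from the labels. The 6 arrays of days 17 and 32 were fitted with limma 3.58.1 in R 4.3.3 (lmFit, eBayes) with terms for day and culture and 3 residual degrees of freedom, and the difference between cultures with 4 group means and 2. A change weights the feeder-free and feeder arms 2 to 1. Calls had a Benjamini-Hochberg adjusted p under 0.05. Background was the 95th percentile of 1239 olfactory and vomeronasal receptor genes, current Or symbols included. The labels do not say whether equal replicate numbers pair the arrays. The correlation of their deviations was -0.099 over 2 pairs, which are too few to decide it.

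Text names the 15 largest rises and 15 largest falls above background with 1 sign in both cultures, up to 4 called genes (or 2 uncalled) of each of 28 lists, 7 hypoblast and pluripotency factors, and up to 5 genes each way whose change differed between cultures, and prints a part of these 111 genes. Tnnc1, Myl3, Dusp1, Krt8, Ankrd1, Ptpn14 and other genes outside the rule, and 10 families, were taken after their values were seen. Members and lists were chosen with earlier results of these data known, and lists carry no test. Promoters were the 250 bases before a start in a RefSeq table. The calculation was tested on simulated data. Alternatives were other rows per gene, a filter on the dimmest 25%, quantile normalization, centring, array weights, eBayes with trend and robust, a minimum change of 1, a replicate block, no culture term, other sets of arrays and leaving out each array. Figures were drawn with matplotlib 3.10.9.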

Additional observations from a re-analysis of the deposited data

Results flagged for a closer look

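For 62 genes the change from day 17 to day 32 differed between the cultures by a test of the difference itself (limma, 4 group means on 6 arrays). The 10 given here were picked by the size of that difference, 5 in each direction. Below, each value is the change of the feeder arm minus the feeder-free change on the log2 scale. It was -2.32 for Ass1, -2.03 for S100a4, -1.89 for Snai2, -1.62 for Igf1 and -1.60 for Sgk1, and 2.07 for Aqp8, 1.65 for Tgfbr3, 1.60 for Papss2, 1.51 for Capn6 and 1.51 for Slc15a2. The adjusted p of these genes ranged from 0.0083 to 0.0245. Each direction was the same under every alternative tried for this test, but all 10 calls were lost under quantile normalization (adjusted p from 0.0531 to 0.0994), under centring (0.0538 to 0.102) and without feeder-free day 32 replicate 1 (0.336) or 2 (0.269 to 0.332). The feeder arm has 1 array a day, so its own spread was not tested.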

How the results depend on the processing

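The count of 794 changed genes became 478 over all 29214 probe sets, 62 at a change of at least 1, and 0 with no culture term or with day and culture terms over all 11 arrays; the cause was not tested. Leaving out 1 array gave 157 to 1099. With the replicate block 673 genes passed, 647 of them among the 794, and 6 of the 87 named calls were lost; equal numbers are no evidence of pairing here. The 62 genes that differed between the cultures became 0 over all probe sets (2282 at an unadjusted p under 0.05), under quantile normalization and under centring, 235 without the dimmest 25% of genes, 199 with trend and robust and 99 with 8 group means over all 11 arrays, and 0 to 313 with 1 feeder-free array left out. Other settings gave a first count between 738 and 1135. The median change of all genes was -0.00086, and it was 0.017 under quantile normalization and 0.052 under centring. The signs that turned were all of uncalled changes in the joint fit: Sox2 to 0.013 (quantile) and 0.011 (centring), Sox17 to 0.0066 (centring), Nanog to 0.0033, Ass1 to 0.70, Snai2 to 0.32 and Sgk1 to 0.31 in the feeder-free arrays alone, and Ass1 to 0.22 and Sgk1 to 0.029 with array weights. With each array left out in turn the change ranged from -0.11 to 0.015 for Sox17 (above 0 without feeder-free day 17 replicate 1 and day 32 replicate 2), and, above 0 without either feeder array, from -0.47 to 0.0033 for Nanog, -0.34 to 0.70 for Ass1, -0.52 to 0.32 for Snai2 and -0.45 to 0.31 for Sgk1. The number of arrays and the nearness of dim genes to background limit the precision.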

Other observations

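Several gene families, grouped by symbol after their values were seen and so given without a test, held more falls than rises, and the kallikreins rises only. Of 15 S100 genes, which bind calcium, 5 fell and 0 rose. S100a1 went from 12.43 and 12.48 to 10.45 and 10.65 without feeder cells and from 13.40 to 12.85 in the feeder arm, and it fell by 1.45 ± 0.24 (adjusted p = 0.0127), a call lost without either feeder-free day 32 array. S100a6 fell by 1.02 ± 0.07 (adjusted p = 0.000651) and S100a11 by 0.76 ± 0.07 (adjusted p = 0.00153), with all arrays of day 32 below all arrays of day 17. Of 11 annexins, membrane-binding partners of S100 proteins, 4 fell and 1 rose: Anxa5 fell by 0.73 ± 0.07 (adjusted p = 0.00169), Anxa6 by 0.71 ± 0.09 (adjusted p = 0.00476) and Anxa4 by 0.64 ± 0.08 (adjusted p = 0.00506), whereas Anxa8 rose by 0.94 ± 0.15 (adjusted p = 0.0122). The call of Anxa8 was lost without either feeder-free day 32 array.

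Some caveolae genes also fell. Cav1, the coat protein of these membrane pits, was 9.64 and 9.70 at day 17 and 8.36 and 8.33 at day 32 without feeder cells, and 11.78 and 10.54 in the feeder arm. It fell by 1.30 ± 0.07 (adjusted p = 0.000334). With Cavin1 (-0.34 ± 0.07) and Cavin3 (-0.73 ± 0.11), 3 of 7 caveolins and cavins fell and 0 rose. Of 9 small heat shock proteins, chaperones of stressed and contracting cells, 2 fell and 0 rose: Hspb8 by 1.21 ± 0.18 (adjusted p = 0.00837) and Cryab by 0.98 ± 0.08 (adjusted p = 0.00101). Of 22 dual-specificity phosphatases 5 fell and 0 rose, among them Dusp7, which acts on ERK, by 0.43 ± 0.07 (adjusted p = 0.0152). Among 18 tissue kallikreins 2 rose and 0 fell, Klk7 and Klk6, the latter by 0.74 ± 0.13 (adjusted p = 0.0193).

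Further large falls were in genes of no list. Adgrl2, an adhesion receptor, went from 10.28 and 10.46 to 8.44 and 8.10 without feeder cells and from 11.08 to 9.64 in the feeder arm, and it fell by 1.88 ± 0.15 (adjusted p = 0.000797). Its relative Adgrl1 rose by 0.91 ± 0.17 (adjusted p = 0.0231), a call lost without feeder-free day 17 replicate 2 and without either feeder-free day 32 array. Map1b, a microtubule-associated protein of neurons, fell by 1.33 ± 0.10 (adjusted p = 0.000656) and Msln, the surface protein mesothelin, by 1.34 ± 0.12 (adjusted p = 0.00121). Among the rises were Lrrc56 (1.10 ± 0.12), Sohlh2, a germ cell transcription factor (1.07 ± 0.17), Scara3 (0.98 ± 0.18), Grip2 (0.89 ± 0.07), Fbxo2 (0.88 ± 0.10), H2ac25 (0.84 ± 0.15) and Atmin (0.81 ± 0.14). Scara3 lost its call with any 1 feeder-free array left out, and Sohlh2, H2ac25 and Atmin without either feeder-free day 32 array. H2ac25 and Atmin also lost theirs without feeder-free day 17 replicate 2. For Sohlh2 and Scara3 the days overlapped across cultures. Of 19 interferon and antigen presentation genes 1 fell, Tapbp, by 0.44 ± 0.09 (adjusted p = 0.0266). Of 13 JAK-STAT genes Il6st, the LIF co-receptor gp130, rose by 0.29 ± 0.07 (adjusted p = 0.0466) and Pim3 fell by 0.36 ± 0.08 (adjusted p = 0.0403). Tapbp and Pim3 lost their calls under quantile normalization and centring. Tapbp also lost its call in the feeder-free arrays alone and with any 1 array left out except feeder-free day 17 replicate 2. Pim3 lost its call with any 1 feeder-free array left out, and Il6st with any 1 array left out.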
